A study of Mus musculus with 8 samples.

Results

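The receptors for orexin and for other neuropeptides were examined in RNA from the ventral pallidum (VP), a basal forebrain region that links the nucleus accumbens with motor and limbic targets. The set holds 10 genes, namely Hcrtr1, Hcrtr2, Npy1r, Npy2r, Cckbr, Sstr1, Adcyap1r1, Crhr1, Tacr1 and Mchr1, chosen by name as receptors of neuropeptides, out of 14353 genes in the table. Each of the 10 had a value in every library and passed a minimum of 1 CPM (read counts scaled to the size of the library) in at least 3 libraries, as did 14249 genes in all. Mice were homozygous for VGluT2-Cre and heterozygous for the tagged Rpl22 allele of RiboTag, both sexes were pooled, and no treatment was given. In such mice cells that express, or have expressed, vGluT2 carry a hemagglutinin tag on their ribosomes, so an antibody collects the mRNA that those ribosomes hold (TRAP). The comparison is with INPUT, RNA of the same lysate, which holds all neurons and glia. The 4 pools were VP1.6, then VP2.2, then VP2.6 and then VP2.11, the order in which their values are given throughout, and held 7 to 11 mice each, 38 in all (15 male, 23 female), aged 9 to 16 weeks by the labels, which differ from the study's text in the number of samples and mice and in the ages. Every pool gave 1 TRAP and 1 INPUT library. The Cre allele marks cells by vGluT2 and not by region, and the dissection may have taken in neighbouring striatum.

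Neuropeptide receptors are G protein-coupled receptors. Orexin (hypocretin) is made by neurons of the lateral hypothalamus and acts through Hcrtr1, which prefers orexin A, and Hcrtr2, which binds both orexins. Orexin, tachykinin and cholecystokinin B receptors signal mainly through Gq proteins and phospholipase C and excite neurons. Receptors of the Npy1r, Npy2r, Sstr1 and Mchr1 genes couple to inhibitory G proteins, and the receptors for the peptides PACAP (Adcyap1r1) and corticotropin-releasing hormone (Crhr1) raise cyclic AMP. In the VP such receptors are known from work on reward, arousal and feeding.

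Among the receptors, Cckbr was higher in TRAP with and without the pool in the model, by 2.12-fold. Sstr1 and Adcyap1r1 were called higher in the main fit, which left the pool out, and not once the pool was added to it. Each was called with the pool under an alternative given below. Neither orexin receptor was called with or without the pool on the deposited scale. The promoters of the member with the firmest call (Cckbr), of the member with the highest level (Adcyap1r1) and of the orexin receptor that lay above INPUT in every pool (Hcrtr2) are given for their sequence around the start of transcription. They run from 250 bases before to 50 bases after the start (RefSeq, GRCm38.p6), and 9 of the 10 receptors have an entry. Capitals mark the motifs searched on both strands, namely the cyclic AMP response element TGACGTCA, its partial form TGACG (which lies within it), the TATA box written as TATAAA, the E-boxes CAGATG as well as CAGCTG, and the GC box GGGCGG.
Cckbr, chr7:105425481-105425780, plus strand: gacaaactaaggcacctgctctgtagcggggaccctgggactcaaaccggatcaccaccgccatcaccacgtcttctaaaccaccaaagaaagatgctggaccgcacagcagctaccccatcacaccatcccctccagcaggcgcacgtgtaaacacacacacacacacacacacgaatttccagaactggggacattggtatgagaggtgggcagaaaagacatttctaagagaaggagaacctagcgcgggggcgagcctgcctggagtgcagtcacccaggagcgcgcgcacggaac
Adcyap1r1, chr6:55451728-55452027, plus strand: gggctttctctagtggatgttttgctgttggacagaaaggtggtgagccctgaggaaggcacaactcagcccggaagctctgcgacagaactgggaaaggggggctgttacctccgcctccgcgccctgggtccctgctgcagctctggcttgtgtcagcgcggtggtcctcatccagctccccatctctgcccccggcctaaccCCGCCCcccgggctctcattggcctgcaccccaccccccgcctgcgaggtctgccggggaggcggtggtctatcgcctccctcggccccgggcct
Hcrtr2, chr9:76323574-76323873, minus strand: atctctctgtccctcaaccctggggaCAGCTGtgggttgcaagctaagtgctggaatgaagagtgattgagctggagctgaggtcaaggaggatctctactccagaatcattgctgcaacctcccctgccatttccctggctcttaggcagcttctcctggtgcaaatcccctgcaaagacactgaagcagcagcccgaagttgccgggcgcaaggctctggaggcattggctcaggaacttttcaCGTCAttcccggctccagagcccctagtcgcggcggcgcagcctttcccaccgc

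In the Cckbr window none of these letters was found. The Adcyap1r1 window held GGGCGG on the opposite strand, a motif in 35.7% of 32851 promoters, and had a GC content of 67.3% against a median of 52.7%. The Hcrtr2 window held CAGCTG, found in 16.3% of promoters, and TGACG on the opposite strand, found in 20.8%. Over all promoters TGACGTCA was found in 1.79%, TATAAA in 13.6% and CAGATG in 17.2%. These matches are descriptions of the letters in the windows.

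Each library value is a log2 CPM that the authors deposited. Reads could be recovered from the TRAP minus INPUT differences of VP2.2 (13.3 M effective reads in TRAP, 40.3 M in INPUT) and VP2.6 (12.9 M and 25.7 M), while the depth of VP1.6 and VP2.11 is unknown. The 2 libraries of a pool deviated from their fraction means in opposite directions across genes (r = -0.745, -0.661, -0.743 and -0.495 for the 4 pools in order), so the libraries are not independent. For 14351 of 14353 genes 1 value lies between the TRAP and INPUT levels of every pool. Because of this, fractions that did not overlap were the same observation as a shared sign in all 4 pools (3320 genes in either count for TRAP above INPUT). How the deposited values came to be opposed within pools is not given in the sources used here. The SD over the libraries of a fraction, the exact permutation p and the SE without the block all take the libraries as independent and have to be read with this in mind. Opposite deviations widen the spread of TRAP minus INPUT, so that p and that SE tend to be too small. For every receptor of the set the SE was larger with the pool in the model. For this reason values from a model that includes the pool (the block) stand beside those from the model that leaves it out. The pulldown target Slc17a6, which encodes vGluT2, was 143 ± 13.6 CPM in TRAP and 25.9 ± 10.3 in INPUT (mean ± SD, n = 4), a log2 fold change of 2.55 (SE 0.25, limma adjusted p = 8.8e-05 without and 7e-06 with the block). Its relative Slc17a7 was higher as well, by 1.45 on the log2 scale, and Slc17a8 was not called. The GABA synthesis genes Gad1 (613 ± 145 CPM in TRAP, 516 ± 170 in INPUT) and Gad2 (528 ± 142 and 560 ± 184) were not called, and Slc32a1, the vesicular GABA transporter, was lower (-1.26), so TRAP still held the mRNA of GABAergic markers. In both fits 6 of 6 striatal markers, 4 of 5 astrocyte markers, 4 of 5 oligodendrocyte markers and 3 of 5 microglial markers were lower in TRAP. The remaining oligodendrocyte marker, Mag, was higher without the block (log2 0.61, limma adjusted p = 0.035) and was not called with it (adjusted p = 0.072). Among 4 cholinergic markers Ache was higher and Slc18a3 lower in both fits, and 1 of 2 markers each of oligodendrocyte precursors (Cspg4) and endothelium (Flt1) was higher. Both fractions of a pool came from the same lysate, so these are differences in the RNA collected and not in the cells present. How many cells of a type gave that RNA, and how much each gave, cannot be told apart in such bulk samples.

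Without the block, 3 of the 10 receptors (30%) were higher in TRAP and 0 were lower, against 23.2% of all genes tested that were higher and 24.8% that were lower (47.9% in either direction, limma, adjusted p under 0.05). With the block 1 of 10 was higher, against 15.4% of all genes, and 0 were lower, against 16.8%. In both fits together 1 of 10 was higher and 15.4% of all genes were. The shares of receptors higher in TRAP lay near the background. The median log2 fold change of the 10 receptors was 0.34 and that of all genes -0.05. Of 10 pan-neuronal genes 7 were higher and 1 (Map2) was lower, 6 and 0 in both fits. When the libraries were instead centred on this list, which moved the median of all genes to -0.95, the direction turned for 8 receptors and 9 of the 10 were negative, Cckbr (0.18) being the exception. Every direction given here is therefore on the deposited scale, relative to all RNA and not to neuronal RNA.

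Pools differed in how the receptors fell. Of the 10, TRAP lay above INPUT for 9 in VP1.6, 8 in VP2.2, 6 in VP2.6 and 5 in VP2.11. The median difference over the receptors was 0.438 in VP1.6, 0.653 in VP2.2, 0.295 in VP2.6 and 0.055 in VP2.11, beside a median over all genes between -0.0441 and -0.01 in each pool. For 3 receptors (Hcrtr2, Cckbr and Sstr1) the fractions did not overlap, which held in this direction for 23.3% of all genes. No receptor lay wholly or in all 4 pools below INPUT, as 24.4% of all genes did.

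**Figure D1:**
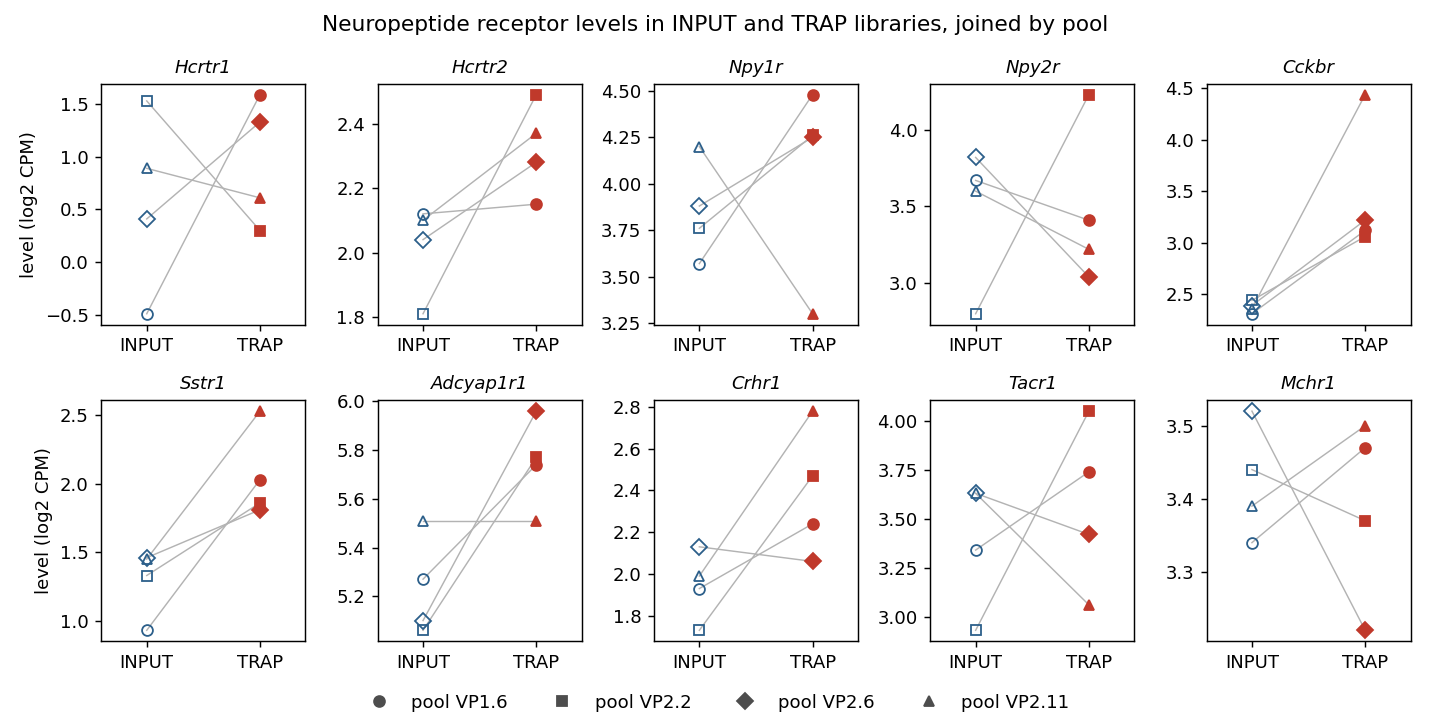
The level of each receptor is plotted as log2 CPM (vertical axis, scaled separately in each panel) for the INPUT (open blue) and TRAP (filled red) libraries, with the 2 libraries of a pool joined by a line. Lines rise in all 4 pools for Hcrtr2, Cckbr and Sstr1, in 3 pools for Npy1r, Adcyap1r1 and Crhr1, in 2 for Hcrtr1, Tacr1 and Mchr1 and in 1 for Npy2r.

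The orexin receptors come first among the Gq-coupled members. Hcrtr1 (ENSMUSG00000028778) lies on the minus strand of chr4:130130217-130139359 (GRCm38). Its levels in TRAP were 3.0, 1.23, 2.51 and 1.53 CPM in the 4 pools, and in INPUT 0.71, 2.88, 1.33 and 1.86 CPM. TRAP was the higher library in VP1.6 and VP2.6 and the lower in VP2.2 and VP2.11, so the fractions overlapped. The log2 fold change was 0.37 (SE 0.48, adjusted p = 0.54 without the block; SE 0.62, adjusted p = 0.68 with it), with a 95% interval from -0.96 to 1.70 with the block. Without VP1.6, whose difference was 2.08, the value turned to -0.20.

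Reads show that the disagreement of pools exceeded counting error for Hcrtr1. In VP2.2 the gene had 12 TRAP and 88 INPUT reads, a difference of -1.23 (counting interval -2.28 to -0.40), and in VP2.6 38 and 40 reads, a difference of 0.92 (0.24 to 1.59). These intervals do not overlap. They are 95% exact (Clopper-Pearson) intervals of the read share and cover counting error only.

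Hcrtr2 (ENSMUSG00000032360), on the minus strand of chr9:76225880-76323856, was at 4.44, 5.61, 4.85 and 5.17 CPM in TRAP and at 4.35, 3.5, 4.12 and 4.29 CPM in INPUT, in the same order. All 4 TRAP values lay above all 4 INPUT values, and within pools the log2 difference was 0.68 in VP2.2, 0.27 in VP2.11, 0.23 in VP2.6 and 0.03 in VP1.6. The difference of 0.30 nevertheless missed the threshold (SE 0.20, adjusted p = 0.23 without the block, and SE 0.36, adjusted p = 0.55, 95% interval -0.47 to 1.08 with it). Centred on pan-neuronal genes it was -0.60, called lower without the block (adjusted p = 0.047) and not with it (adjusted p = 0.2). The reads of Hcrtr2 were 64 and 121 in VP2.2 (0.22 to 1.13) and 62 and 105 in VP2.6 (-0.25 to 0.70). The exact permutation test over the 8 libraries gave a two-sided p of 0.0286, the smallest that 4 against 4 allow, which takes the libraries as independent. Sign flips within the 4 pools cannot go below 0.125.

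The genes most like the orexin receptors were sought by the root mean square distance between the 8 log2 values, each gene centred on its mean, over 14247 genes. For Hcrtr1 these were Ucn3 (0.14), Ppp1r13l (0.17) and Gm5141 (0.18), all with a positive difference in VP1.6 and VP2.6 and a negative one in VP2.2 and VP2.11. Such shared signs follow from the choice by distance. For Hcrtr2 they were Vps51, Vangl2 and Dgcr2, at a distance of 0.04 each. Hcrtr2 itself spans 0.34 on the log2 scale in TRAP and Hcrtr1 1.29, so a short distance to Hcrtr2 is a resemblance between small changes.

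Cckbr (ENSMUSG00000030898), on the plus strand of chr7:105425731-105470898, encodes the cholecystokinin B receptor, the main brain receptor for that peptide. Its TRAP levels were 8.69, 8.34, 9.34 and 21.7 CPM in the 4 pools, and its INPUT levels 4.96, 5.41, 5.24 and 5.13 CPM. The deposited INPUT levels were nearly the same in each pool. TRAP was higher in each, and the TRAP library of VP2.11 stood apart from the other 3. From reads, INPUT was 4.54 CPM in VP2.2 and 5.68 CPM in VP2.6, farther apart than deposited and in the opposite order. The log2 fold change was 1.09 (SE 0.29, adjusted p = 0.011 without the block; SE 0.34, adjusted p = 0.024 with it, and 95% interval 0.36 to 1.81 with it). Without VP2.11 it was 0.76, with an adjusted p of 0.0055 without the block and 0.11 with it, and with the block it also missed the threshold without VP2.6 (1.17, adjusted p = 0.052). Centred on pan-neuronal genes it was 0.18 (adjusted p = 0.6). Reads gave 93 and 183 in VP2.2 (0.24 to 0.99) and 131 and 146 in VP2.6 (0.48 to 1.18), above 0 in both pools. Slc17a7, the vesicular glutamate transporter of most cortical excitatory neurons, moved the same way (53.9 ± 5.15 CPM in TRAP, 20.2 ± 5.52 in INPUT), and its part in the Cckbr result was not tested.

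Tacr1 (ENSMUSG00000030043, chr6:82402334-82560104, plus strand), the receptor for substance P, is the last member of the Gq-coupled group. TRAP held 13.4, 16.6, 10.7 and 8.34 CPM in the 4 pools and INPUT 10.1, 7.64, 12.4 and 12.4 CPM. Pools VP1.6 and VP2.2 had more in TRAP and VP2.6 and VP2.11 less. Its mean difference was 0.19 (95% interval -0.49 to 0.87 with the block, adjusted p = 0.55 without and 0.69 with it) and turned to -0.12 without VP2.2. The read intervals of VP2.2 (350 and 488 reads, interval 0.91 to 1.32) and VP2.6 (130 and 298 reads, interval -0.52 to 0.10) do not overlap.

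**Figure D2:**
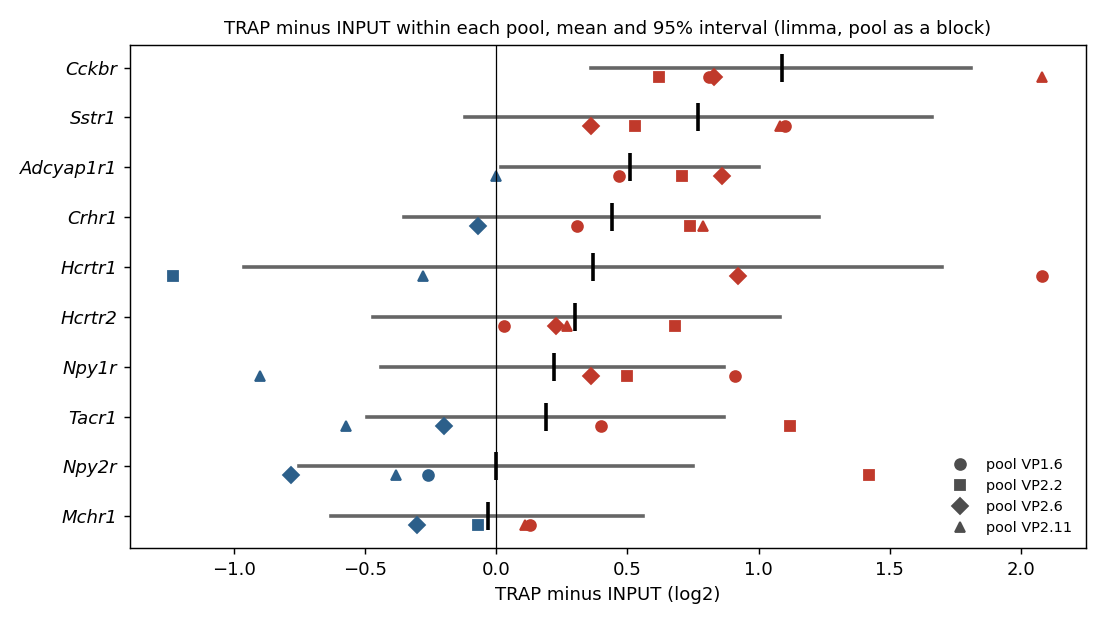
TRAP minus INPUT is plotted on the log2 axis for each receptor and pool (symbols, red above 0 and blue at or below it), with the mean (black tick) and the 95% interval of the limma model that includes the pool (grey bar). The unadjusted intervals of Cckbr (0.36 to 1.81) and Adcyap1r1 (0.02 to 1.00) lie above 0, and those of the other 8 receptors span it.

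Of the receptors that raise cyclic AMP, Adcyap1r1 (ENSMUSG00000029778, chr6:55451978-55501451, plus strand), the receptor for PACAP, had the highest level per exon length. Its TRAP levels were 53.6, 54.5, 62.4 and 45.6 CPM and its INPUT levels 38.6, 33.3, 34.4 and 45.6 CPM, pool by pool. TRAP was higher in 3 pools, and in VP2.11 the fractions were level (0.00). The log2 fold change was 0.51, or 1.43-fold (SE 0.15, adjusted p = 0.017 without the block), and was not called with the block (SE 0.23, adjusted p = 0.1). Centred on pan-neuronal genes it was -0.39, called lower without the block (adjusted p = 0.047) and not with it (adjusted p = 0.17). Once a trend with exon length was taken out it was 0.35, not called in either fit (adjusted p = 0.083 without and 0.28 with the block). Array weights kept the call with the block (0.59, adjusted p = 0.02). Without the block its adjusted p was 0.056 to 0.13 when VP1.6, VP2.2 or VP2.6 was left out, and 0.0053 without VP2.11 (0.68). Its reads were the most of any member, 996 and 1840 in VP2.2 (0.60 to 0.82) and 727 and 796 in VP2.6 (0.71 to 1.01), and these intervals overlap.

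Crhr1 (ENSMUSG00000018634, chr11:104132855-104175523, plus strand), the receptor for corticotropin-releasing hormone, had 4.72, 5.53, 4.16 and 6.87 CPM in TRAP and 3.81, 3.32, 4.36 and 3.97 CPM in INPUT. TRAP was above INPUT in 3 pools, and the difference was -0.07 in VP2.6. The difference of 0.44 on the log2 scale was not called (SE 0.23, adjusted p = 0.13 without the block, 0.39 with it, and 95% interval -0.35 to 1.23 with it), and it was -0.46 when centred on pan-neuronal genes. Once a trend with exon length was taken out it was 0.83, called without the block (adjusted p = 0.013) and not with it (adjusted p = 0.1). Reads were 78 and 142 in VP2.2 (0.31 to 1.14) and 40 and 84 in VP2.6 (-0.66 to 0.48).

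The inhibitory receptors were led by Sstr1 (ENSMUSG00000035431, chr12:58211772-58214444, plus strand), a somatostatin receptor. TRAP held 4.09, 3.62, 3.51 and 5.78 CPM in the 4 pools, and INPUT 1.9, 2.51, 2.75 and 2.73 CPM. Each TRAP library was above each INPUT library. The mean difference was 0.77 on the log2 scale, or 1.7-fold, called without the block (SE 0.26, adjusted p = 0.032) and not with it (SE 0.42, adjusted p = 0.17; 95% interval -0.12 to 1.66). It was -0.14 when centred on pan-neuronal genes and 1.27 (adjusted p = 0.031 with the block) once a trend with exon length was taken out. The call without the block was lost when VP1.6, VP2.2 or VP2.6 was left out (adjusted p 0.063 to 0.13). Reads were few, 67 and 141 in VP2.2 (0.08 to 0.95) and 52 and 81 in VP2.6 (-0.18 to 0.87).

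Npy1r (ENSMUSG00000036437, chr8:66697192-66706792, plus strand) and Npy2r (ENSMUSG00000028004, chr3:82538383-82548084, minus strand) are receptors for neuropeptide Y, and Npy2r is known as a presynaptic receptor. Npy1r was at 22.4, 19.1, 19.0 and 9.85 CPM in TRAP and at 11.9, 13.6, 14.8 and 18.4 CPM in INPUT. TRAP was the higher fraction in VP1.6, VP2.2 and VP2.6 and the lower in VP2.11, where the difference was -0.90. On average the difference was 0.22 (95% interval -0.44 to 0.87 with the block, adjusted p = 0.5 without and 0.62 with it). Without VP2.11 it was 0.59, with an adjusted p of 0.014 in the fit without the block, and without VP1.6 it was -0.01. Its reads gave a difference above 0 in VP2.2 (264 and 566 reads, interval 0.28 to 0.71) and in VP2.6 (213 and 329 reads, interval 0.11 to 0.62).

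Npy2r had 10.7, 18.7, 8.21 and 9.32 CPM in TRAP and 12.7, 6.98, 14.1 and 12.1 CPM in INPUT. It was lower in TRAP in VP1.6 (-0.26) and VP2.6 (-0.78) and higher in VP2.2 (1.42), and lower in VP2.11 (-0.38). The mean difference was 0.00 (95% interval -0.75 to 0.75 with the block, adjusted p = 1 in both fits) and -0.47 without VP2.2. In VP2.2 the difference rested on 361 and 407 reads (1.22 to 1.63), and no read pair was recovered in VP2.6.

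Mchr1 (ENSMUSG00000050164, chr15:81235499-81238964, plus strand), the receptor for melanin-concentrating hormone, another peptide of the lateral hypothalamus, had the smallest spread of differences between pools (SD 0.20). TRAP held 11.1, 10.4, 9.34 and 11.3 CPM and INPUT 10.1, 10.9, 11.5 and 10.5 CPM. No pool differed by more than 0.30 on the log2 scale. The mean difference was -0.03 (SE 0.15, adjusted p = 0.88 without the block; SE 0.28, adjusted p = 0.94 with it), with a 95% interval of -0.63 to 0.56. Centred on pan-neuronal genes it was -0.93 and was called lower in both fits (adjusted p = 0.0011 without and 0.019 with the block). Reads were 181 and 575 in VP2.2 (-0.32 to 0.17) and 140 and 343 in VP2.6 (-0.60 to -0.01).

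Levels were compared between receptors as CPM per kilobase of exon. In TRAP, Adcyap1r1 was at 8.18 ± 1.04, followed by Npy1r at 5.09 ± 1.56, Mchr1 at 4.81 ± 0.406, Cckbr at 4.2 ± 2.26 and Npy2r at 3.47 ± 1.41 (mean ± SD, n = 4). Below these came Crhr1 at 2.16 ± 0.479, Sstr1 at 2.08 ± 0.512, Tacr1 at 1.89 ± 0.545, Hcrtr2 at 0.814 ± 0.0808 and Hcrtr1 at 0.793 ± 0.318. Adcyap1r1 exceeded Npy1r in all 4 libraries, by 0.74 ± 0.40 on the log2 scale, and Tacr1 exceeded Hcrtr2 in all 4, by 1.17 ± 0.42. The other neighbours in the order changed places between libraries, the orexin receptors among them. Against all genes in TRAP, Adcyap1r1 stood at percentile 68.3 and the orexin receptors at 18.7 (Hcrtr2) and 17.4 (Hcrtr1). In INPUT the same 2 were last (0.659 ± 0.0632 and 0.65 ± 0.352) and Adcyap1r1 first (5.75 ± 0.843). No member shares exon bases with another annotated gene.

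**Figure D3:**
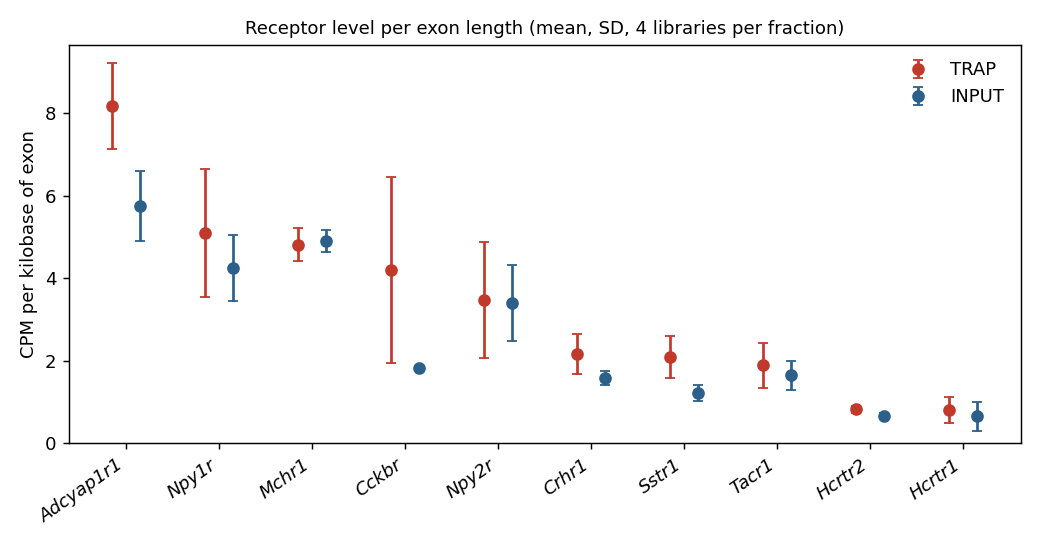
The level of each receptor is shown as CPM per kilobase of exon (vertical axis, from 0), as the mean and SD of 4 libraries in TRAP (red) and INPUT (blue), in the order of the TRAP means. Adcyap1r1 is the highest (8.18 ± 1.04 in TRAP) and Hcrtr1 and Hcrtr2 the lowest in both fractions.

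The levels of single libraries are less certain than the differences within a pool. Where reads were recovered, the deposited level differed from the level the reads gave by -0.67 to 0.41 on the log2 scale for the members, by the same amount in both libraries of a pool. The read pair taken was the one closest to the deposited levels, so this range was partly set by that choice. A comparison of 1 pool with another therefore rests on the deposited levels.

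Genes for the peptides that bind these receptors, or that are related to those peptides, were mostly lower in TRAP where they were called. Of 17 such genes, 11 had a value, of which 1 (9.09%) was higher and 6 (54.5%) lower where the block was left out, against 23.2% and 24.8% of all genes. In both fits the counts were 1 and 5, against 15.4% and 16.7% of all genes. Their median difference was -1.44. Higher was Adcyap1, which encodes PACAP, at 11, 11.5, 12.4 and 18.8 CPM in TRAP and 2.55, 2.37, 2.82 and 4.72 CPM in INPUT, pool by pool. The rise was alike in the 4 pools (1.99 to 2.28), with a mean of 2.13 (adjusted p = 0.00025 without and 0.0003 with the block), while its receptor Adcyap1r1 ranged from 0.00 to 0.86.

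Lower in both fits were Npy, Sst, Tac1, Tac2 and Vip, peptides known from striatal projection neurons and interneurons. Npy fell by 2.46 on the log2 scale (26.4 ± 3.38 CPM in TRAP, 153 ± 55.1 in INPUT, adjusted p = 8.3e-05 without and 8e-06 with the block), and Npy1r and Npy2r stood at 0.22 and 0.00. Somatostatin (Sst) fell by 1.69 (69.2 ± 20.8 and 228 ± 78.6 CPM, adjusted p = 0.001 and 0.00072), beside 0.77 for Sstr1. Tac1, which encodes substance P, fell by 1.75 (115 ± 23.8 and 386 ± 74.6 CPM, adjusted p = 0.00012 and 0.00011), Tac2, for neurokinin B, by 2.12 (10.1 ± 2.35 and 43.5 ± 6.4 CPM, adjusted p = 7.1e-05 and 3.4e-05), and Tacr1 stood at 0.19. Vip, whose peptide also binds the PACAP receptor with low affinity, fell by 2.04 (1.81 ± 1.26 and 4.85 ± 0.151 CPM, adjusted p = 0.049 and 0.024). Its difference was -4.93 in VP2.11 and -0.54 to -1.53 in the other 3. In VP2.11 its TRAP level was 0.162 CPM, below the minimum of 1 CPM. Summed levels of the 6 striatal markers ranged from 329 to 554 CPM in TRAP and from 907 to 1411 CPM in INPUT, and their part in these differences was not tested.

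Peptides for the orexin and melanin-concentrating hormone receptors were variable. Hcrt, the orexin precursor, was at 3.98, 3.52, 2.4 and 0.799 CPM in TRAP and 1.17, 1.44, 2.13 and 3.56 CPM in INPUT, pool by pool. The difference went from 1.77 in VP1.6 to -2.15 in VP2.11, with a mean of 0.27 that was not called (adjusted p = 0.7 without and 0.78 with the block). Pmch, for melanin-concentrating hormone, went from 2.63 in VP2.6 to -3.05 in VP2.11 (mean 0.36, adjusted p = 0.71 and 0.72). For both the deposited levels of VP2.6 departed far from the reads. The fewest reads that the ratio allows for Hcrt, 214 and 378, give 16.5 and 14.7 CPM, against 2.4 and 2.13 CPM deposited. For Pmch 1430 and 460 reads give 110 and 17.9 CPM, against 15.3 and 2.48 CPM deposited. Both mRNAs are known from hypothalamic cell bodies. Of 7 hypothalamic markers 4 had a row, Hcrt and Pmch among them. Sim1 was higher and Pomc lower in both fits. The sum of the deposited levels over the list ranged from 7.92 to 24.1 CPM in TRAP and from 9.11 to 22.5 CPM in INPUT. In VP2.6 the reads of Pmch alone gave 110 CPM in TRAP, so the sums may be too low there. The part of the hypothalamic markers in the levels of Hcrt and Pmch was not tested.

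The remaining peptide genes were Crh, Cck and Ucn3. Crh fell by 1.44 on the log2 scale without the block, with an adjusted p just under the threshold, and was not called with it (adjusted p = 0.091). Its difference was -2.26, -3.40, -0.39 and 0.30 across the pools. Cck was at 12.2 ± 2.31 CPM in TRAP and 10.3 ± 1.42 in INPUT (log2 difference 0.24, adjusted p = 0.32 without the block), beside 1.09 for Cckbr. Ucn3, a relative of corticotropin-releasing hormone that acts mainly through another receptor, Crhr2, differed by 0.37 (adjusted p = 0.51). Pyy, Gast, Cort, Ucn, Ucn2 and Tac4 had no value in the data used here.

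**Figure D4:**
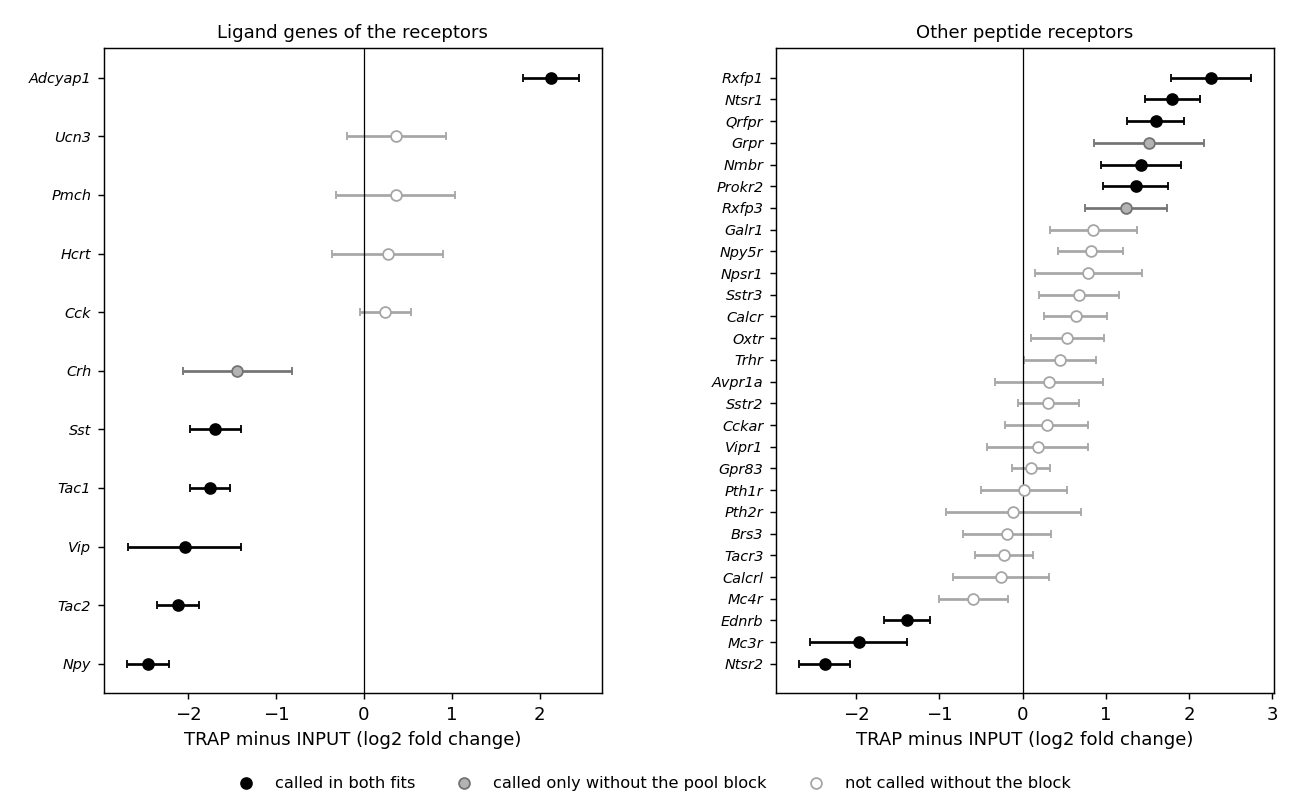
The log2 fold change of TRAP over INPUT (horizontal axis) is shown with its SE in the block fit for 11 genes of peptide ligands (left) and 28 other peptide receptors (right). Black points were called in both fits, grey points only without the pool block, and open points were not called without it; among ligands Adcyap1 alone lies to the right as a black point, and Npy lies farthest left at -2.46.

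Other peptide receptors gave a wider range than the 10 members. Of 64 in the list 28 had a value, and 7 (25%) were higher and 3 (10.7%) lower without the block, against 23.2% and 24.8% of all genes. In both fits 5 were higher and 3 lower, against 15.4% and 16.7%. The median difference over these 28 was 0.39. The farthest above were Rxfp1, the relaxin receptor (log2 fold change 2.27, 6.13 ± 3.86 CPM in TRAP, 1.18 ± 0.374 in INPUT, adjusted p = 0.0015 without and 0.0026 with the block), Ntsr1, a neurotensin receptor (log2 1.80, 12.1 ± 5.36 and 3.33 ± 0.705 CPM, adjusted p = 0.00078 and 0.0011), and Qrfpr (log2 1.6, 11.8 ± 2.17 and 4.01 ± 1.37 CPM, adjusted p = 0.00091 and 0.0027), a receptor for an RFamide peptide. All 3 exceeded the 1.09 of Cckbr in size. The farthest below were Ntsr2, a neurotensin receptor known from astrocytes (log2 -2.38, 4.84 ± 2.46 and 23.5 ± 4.58 CPM), Mc3r, a melanocortin receptor (log2 -1.97, 0.744 ± 0.125 and 2.9 ± 0.452 CPM), and Ednrb, an endothelin receptor of astrocytes (log2 -1.39, 25.6 ± 12.2 and 63.2 ± 14 CPM), all called in both fits. The sum of the 5 astrocyte markers ranged from 150 to 253 CPM in TRAP and from 343 to 502 CPM in INPUT, and its part was not tested.

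A list of 32 genes took in signal transduction and also proteins that regulate or accompany peptide receptors or bind their peptides. Of these, 30 had a value. Without the block 5 (16.7%) were higher and 4 (13.3%) lower, against 23.2% and 24.8% of all genes, and in both fits 2 were higher and 2 lower, against 15.4% and 16.7%. Those higher in both were Plcb4 (log2 1.91, 223 ± 8.25 CPM in TRAP, 62.2 ± 19.7 in INPUT, adjusted p = 2e-04 without and 8.5e-05 with the block) and Plcb1 (log2 1.62, 487 ± 30 and 164 ± 45.3 CPM, adjusted p = 0.00026 and 0.00024), the phospholipases that Gq proteins activate. Lower in both were Ramp1, which partners the calcitonin-like receptor (log2 -1.74, adjusted p = 1e-04 and 0.00037), and Gnai2, an inhibitory G protein subunit (log2 -0.75, adjusted p = 0.002 and 0.018). The median of the list was 0.09, beside 0.34 for the receptors.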

How the data were processed

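RNA of 8 libraries (TRAP and INPUT of 4 pools) was analysed. Per the methods the authors aligned reads with STAR (version 2.5.1a in the submitters' processing notes), counted unique reads per gene with featureCounts, scaled by TMM in edgeR and used limma with voom. The values the authors deposited and used here are log2 CPM; their fold changes, limits and p-values were not used. The methods name an input taken before the beads, as the labels do, and in another place an unbound fraction. Whether counting used strand is not given in the sources used here. Rounding to 3 significant digits affects both libraries of VP2.11 and the INPUT library of VP1.6. Linear CPM sums to between 0.855 and 1.11 M per library.

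Of 14398 entries, 45 repeats were dropped. Positions and exon lengths came from GENCODE M21 (GRCm38; 14349 genes matched by identifier). The 14249 genes that exceeded 1 CPM in 3 or more libraries were fitted with limma 3.58.1 (lmFit, eBayes with trend) in R 4.3.3, with Benjamini-Hochberg adjustment over all of them and a threshold of 0.05. The fraction was the only term, and the pool was added as a block in an alternative. The pool pairs the libraries, since the labels give both fractions the same pool and both come from 1 homogenate; same-pool deviations correlated at -0.745 to -0.495 across genes, against 0.0457 to 0.441 between pools. For 14351 of 14353 genes 1 value lies between the TRAP and INPUT levels of every pool. Both fits and the recovery of reads were tested on simulated data. Of the fits, only the one with the block had to keep false calls under a set limit. The simulated shifts between deposited and read levels were small beside those of Hcrt (log2 -2.79) and Pmch (-2.85) in VP2.6. The test of the recovery therefore does not cover genes with such shifts.

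Whole reads were recovered from differences within pools for 86.2% of genes in VP2.2 and 90.5% in VP2.6 (relative tolerance 1.5e-09), as the pair closest to the deposited levels. No count test was run, since 2 pools gave no reads. Intervals from reads are exact and cover counting error only.

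Named were all receptors and their ligands with a row, up to 3 genes higher and 3 lower in both fits from the lists of other peptide receptors and of signal transduction, the 3 genes nearest to each orexin receptor, and Slc17a6. Members and lists were chosen with earlier results of these data known. Alternatives were array weights, other filters, no trend, centring on the median or on pan-neuronal genes, an exon length trend taken out, a fold threshold and each pool left out. The exon length trend without the block, pan-neuronal centring with it and pools left out with it were added after seeing the data.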

Additional observations from a re-analysis of the deposited data

Results flagged for a closer look

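Samples that stood apart within a group of 4 libraries were sought in 63 groups of values (the receptors and their ligands, each fraction and the difference), and 4 were found, where chance gives about 1 in 20 groups (3.15 here). For Cckbr the TRAP library of VP2.11 was at 4.44 log2 CPM, the other 3 at 3.06 to 3.22. Its difference in VP2.11 was 2.08, the other 3 pools lying between 0.62 and 0.83. Without that pool Cckbr remained above INPUT by 0.76. For Vip the INPUT library of VP1.6 was at 2.21 log2 CPM, the others at 2.30. For Tac1 the INPUT library of VP2.11 was at 8.10 log2 CPM and the others at 8.72 to 8.73. Values of VP2.11 INPUT and VP1.6 INPUT are among those rounded to 3 significant digits.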

How the results depend on the processing

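With the replicate block (the pool as a term) 1 receptor was called in place of 3, 4592 genes in place of 6830 and 8 other peptide receptors in place of 10, and the block changed the calls of Sstr1 and Adcyap1r1 and of no other receptor. Requiring a log2 fold change of at least 1 left 3528 genes and 1 receptor. Array weights gave 20 other peptide receptors. Centring on pan-neuronal genes gave 6 receptors, all lower, without the block and 1 with it, and 445 genes higher and 9440 lower, against 3300 and 3530 as deposited. It turned Hcrtr1 to -0.53, Hcrtr2 to -0.60, Npy1r to -0.68, Npy2r to -0.90, Sstr1 to -0.14, Adcyap1r1 to -0.39, Crhr1 to -0.46 and Tacr1 to -0.72, in either fit. Taking out an exon length trend gave 3772 genes with the block (2179 higher, 1593 lower) and turned Mchr1 to 0.43; without the block it called Mchr1 and Crhr1 (0.83) and no longer Adcyap1r1 (0.35). Over 1 CPM in all 8 libraries, 3206 genes were higher and 2783 lower, and Hcrtr1 was not tested. Array weights turned Npy2r to -0.35 (-0.34 with the block), and median centring turned Mchr1 to 0.00. With 1 pool left out, 4862 to 6894 genes, 1 to 4 receptors and 8 to 15 other peptide receptors were called, and with the block 3232 to 4156, 0 to 1 and 6 to 9. Values that turned then were Hcrtr1 (-0.20, range to 0.90) and Npy1r (-0.01, to 0.59) without VP1.6, Npy2r (-0.47, to 0.26) and Tacr1 (-0.12, to 0.44) without VP2.2 and Mchr1 (0.06, down to -0.09) without VP2.6. Of 189 receptor values under alternatives, 131 kept their direction and side of the threshold, 23 kept their direction and lost a call, 4 kept it and gained one, and 31 changed sign. Of these 31, 5 gained a call, 3 lost one and 1 was called in both directions (Adcyap1r1, centred on pan-neuronal genes without the block). The causes were not tested. The fewest reads of a receptor were the 12 TRAP reads of Hcrtr1 in VP2.2. Depth is unknown in VP1.6 and VP2.11.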
